A study of Homo sapiens with 6 samples.

Results

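The genes described here are 4 type II hair keratins, KRT81, KRT83, KRT85 and KRT86, and 2 keratin-associated proteins, KRTAP3-1 and KRTAP2-3. They were measured as poly-A RNA in LoVo, an established human colon adenocarcinoma cell line. Of 6 libraries, 3 carry the non-target label and serve as controls, and 3 carry the label SHARPIN knockout. The labels name no other treatment and do not say how the knockout was made or whether it is a clone. SHARPIN belongs to the complex that builds linear ubiquitin chains, and the series asks how its loss changes gene expression. The 6 genes were picked by symbol, of 22496 symbols listed in at least 1 library, and all 6 were listed in every library. They were picked with the difference between knockout and non-target in view, so their own differences are described without p-values. Nothing is read from whether they passed the test over all genes. Since no label speaks of separate cultures, p-values for other genes reflect only how far these libraries differ, possibly for technical reasons. Where 3 values are given for a group, they are in the order of replicates 1, 2 and 3. In bulk RNA, a change in the number of cells that make a transcript and a change in the amount per cell cannot be told apart.

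Hair keratins, also called trichocyte keratins, form the hard intermediate filaments of hair and nail. Each filament is built from heterodimers of an acidic type I and a basic type II chain, so a cell that makes one kind normally makes a partner of the other. KRT85 appears early, in the hair matrix and precortex, and KRT81, KRT83 and KRT86 follow in the cortex, where mutations in each of the 3 can cause the brittle-hair disorder monilethrix. Keratin-associated proteins are small, cysteine-rich proteins that surround and cross-link these filaments through disulfide bonds. Colon epithelium is a simple epithelium whose filaments are normally built from KRT8, KRT18, KRT19 and KRT20.

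The type II keratins of the set are close copies of each other, which bears on how far their values can be separated. The same 90 coding bases are printed here from the longest coding transcript of each gene (GENCODE, GRCh37), starting at coding base 601 of KRT81 and KRT86, 616 of KRT83 and 652 of KRT85, with capitals where a base differs from KRT81.
KRT81: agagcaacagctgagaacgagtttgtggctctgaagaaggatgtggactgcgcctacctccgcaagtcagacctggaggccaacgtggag
KRT86: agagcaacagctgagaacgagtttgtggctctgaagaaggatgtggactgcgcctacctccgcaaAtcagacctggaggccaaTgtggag
KRT83: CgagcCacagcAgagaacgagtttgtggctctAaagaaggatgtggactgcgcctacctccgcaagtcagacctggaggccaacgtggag
KRT85: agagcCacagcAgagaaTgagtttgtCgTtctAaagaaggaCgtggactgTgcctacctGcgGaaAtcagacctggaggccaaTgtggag
In this stretch KRT86 differed from KRT81 at 2 bases, KRT83 at 4 and KRT85 at 12. Over the aligned coding sequence KRT81 was 96.6% identical to KRT86, 94.1% to KRT83 and 88.3% to KRT85. Of the 100-base windows of the KRT86 transcript, 25% occur unchanged in KRT81, and none of those of KRT83 or KRT85 do. The sources used here do not say how fragments that fit several genes were assigned, so the split between KRT81 and KRT86 is uncertain. Stretches shorter than 100 bases are shared with KRT83 too, as the end of its printed stretch shows. KRT83 stood at 0.205 to 0.655 FPKM per 100 FPKM of KRT81 in knockout. Whether its values hold fragments of KRT81 was not tested.

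The keratin-associated proteins are shown by the first 150 coding bases of each (GENCODE, GRCh37), with capitals on the cysteine codons in frame, because cysteine is the residue through which they act.
KRTAP3-1: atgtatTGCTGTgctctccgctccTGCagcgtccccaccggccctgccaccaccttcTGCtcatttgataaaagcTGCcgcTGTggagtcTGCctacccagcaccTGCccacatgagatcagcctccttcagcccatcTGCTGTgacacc
KRTAP2-3: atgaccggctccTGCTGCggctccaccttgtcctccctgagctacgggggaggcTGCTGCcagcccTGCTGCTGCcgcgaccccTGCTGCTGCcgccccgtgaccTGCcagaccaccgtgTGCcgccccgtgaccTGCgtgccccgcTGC
Cysteine codons made up 18.4% of the 98 codons of KRTAP3-1 and 27.3% of the 128 codons of KRTAP2-3, against 5.33% to 6.73% in the 4 keratins. KRTAP2-3 has near-identical neighbours. Its coding sequence is 99.7% identical to that of KRTAP2-4, 99.5% to KRTAP2-1 and 95.8% to KRTAP2-2, and 34% of the 100-base windows of its transcript occur in KRTAP2-4. KRTAP3-1 is 76.9% identical to KRTAP3-2 and shares no 100-base window with it.

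The 4 keratins lie together in the type II keratin cluster on chromosome 12 (GRCh37): KRT86 at 52643084 to 52702947, KRT81 at 52679697 to 52685318, KRT83 at 52708085 to 52715182 and KRT85 at 52753790 to 52761265. KRT86 is on the plus strand and its annotated span holds KRT81, which is on the minus strand, but no annotated exon base of KRT81 lies in an exon of KRT86. KRTAP3-1 (39164773 to 39175576) and KRTAP2-3 (39215492 to 39216366) lie in the keratin-associated protein cluster on chromosome 17.

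Each library listed between 19068 and 20158 genes, and the smallest steps between values gave an estimated depth of 21100000 to 22500000 fragments. Levels are FPKM, that is, fragments per kilobase of transcript, scaled to the mapped fragments of the library. SHARPIN itself was measured at 11.9, 13.9 and 12.9 FPKM in the controls and at 7.55, 11.9 and 18.0 FPKM under the knockout label. Its log2 difference was -0.12 ± 0.26 (SE; limma, adjusted p = 0.827), so the transcript does not check the labels, and directions are those of the libraries as labelled. Of 10 colon epithelial markers, all 10 reached 1 FPKM in at least 1 library. In limma 4 of them (CDX1, VIL1, CDH17 and GPA33) fell, KRT20 rose and 5 did not pass, beside 5.93% of all genes tested that fell and 6.26% that rose. CDX1 and VIL1 were under 1 FPKM in every knockout library, so they entered the test through non-target alone. With a replicate block KRT8 passed as well (adjusted p = 0.0459). KRT20 did not pass without non-target replicate 2 or 3 or knockout replicate 2 (adjusted p up to 0.109). Their summed level, mostly KRT8 and KRT18, was 3835 to 4996 FPKM in non-target and 4183 to 8774 FPKM in knockout. Of 9 fibroblast markers, 4 reached 1 FPKM in any library. The one tested, LUM, fell from 6.67 ± 1.42 to 0.245 ± 0.124 FPKM (SD, n = 3), and it too entered the test through non-target alone. The sum of the fibroblast markers was 20.2, 7.99 and 7.78 FPKM in non-target and 0.812, 0.297 and 0.234 FPKM in knockout, in each case for replicates 1, 2 and 3. Non-target replicate 1 stood apart by the collagens COL1A1 and COL1A2, at 6.60 and 6.12 FPKM, where COL1A1 was at most 0.290 FPKM and COL1A2 at most 0.139 FPKM in the other 5 libraries. COL1A2, DCN and PDGFRA were at 0 in replicates 2 and 3 of both groups, and at 0.139, 0.022 and 0.014 FPKM in knockout replicate 1. The other fibroblast markers were mixed. Among knockout libraries COL1A1, COL3A1 and LUM were highest in replicate 1, THY1 and PDGFRB in replicate 2, and FAP was at 0 throughout. In non-target replicate 1 THY1 was at 1.28 FPKM, while LUM was at 5.03 FPKM, against 7.52 and 7.45 FPKM in replicates 2 and 3. Of 8 leukocyte markers only CD68 reached 1 FPKM, and it did not pass (limma, adjusted p = 0.0850, and 0.0156 with a replicate block, where it was higher in knockout).

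KRT81 was the most abundant of the 6 genes in every library. It stood at 31.1, 6.25 and 6.47 FPKM in non-target and at 292, 80.1 and 129 FPKM in knockout. The lowest knockout library was 2.58 times the highest non-target library, so the groups did not overlap. The group means were 14.6 ± 14.3 FPKM (SD, n = 3) in non-target and 167 ± 111 FPKM in knockout, an 11.4-fold difference, and the SDs show how unlike the libraries of a group were. By rank among all symbols KRT81 was 1804th, 7407th and 7315th in non-target and 179th, 652nd and 465th in knockout replicates 1, 2 and 3.

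KRT86, the closest copy of KRT81, differed less between groups. It stood at 1.78, 1.03 and 0.992 FPKM in non-target and at 6.32, 2.41 and 2.63 FPKM in the knockout replicates. The groups did not overlap, with the lowest knockout library 1.35 times the highest non-target one, and the means were 1.27 ± 0.442 and 3.79 ± 2.20 FPKM (SD, n = 3), a 2.99-fold difference. KRT85, the early hair-matrix keratin, stood at 0.544, 0.197 and 0.276 FPKM in non-target and 1.67, 0.465 and 0.734 FPKM in knockout. Here the groups overlapped, since knockout replicate 2 lay below non-target replicate 1.

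KRT83 had the lowest mean of the set in both groups. It stood at 0.130, 0.171 and 0.071 FPKM in non-target, an estimated 3.0 to 6.8 fragments per library. In knockout replicates 1, 2 and 3 it stood at 1.91, 0.164 and 0.488 FPKM, an estimated 79.6, 6.6 and 19.8 fragments. Knockout replicate 2 lay within the non-target range, so for KRT83 a difference between the groups was not detectable in every pair of libraries at this depth.

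The keratin-associated proteins showed the widest separation between groups. KRTAP3-1 stood at 3.53, 0.963 and 1.34 FPKM in non-target and at 79.7, 27.8 and 34.6 FPKM in knockout. The lowest knockout library was 7.88 times the highest non-target one, and the means, 1.94 ± 1.39 and 47.4 ± 28.2 FPKM (SD, n = 3), were 24.4-fold apart. KRTAP2-3 stood at 1.39, 0.832 and 0.208 FPKM in non-target and at 16.2, 10.5 and 14.0 FPKM in knockout. The lowest knockout library was 7.53 times the highest non-target one, and the means were 0.811 ± 0.593 and 13.6 ± 2.87 FPKM (SD, n = 3), 16.7-fold apart. KRTAP2-3 was thus the most even of the 6 among the knockout libraries.

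**Figure D1:**
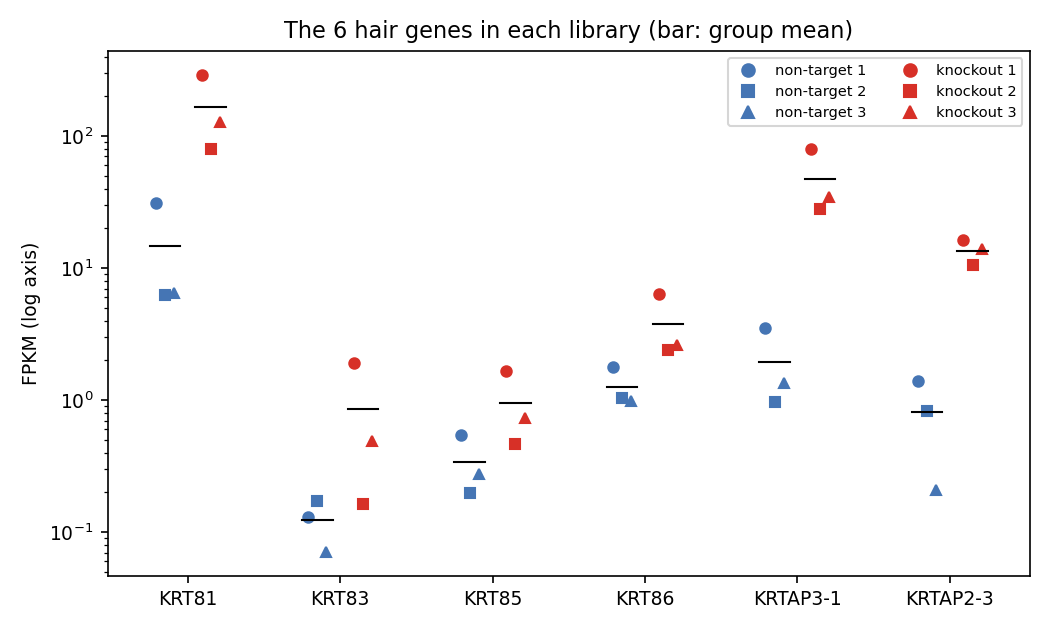
FPKM (log axis) of the 6 genes in each library, with non-target in blue, knockout in red, a marker shape per replicate number and a bar at the group mean. KRT81, KRT86, KRTAP3-1 and KRTAP2-3 do not overlap between groups, KRT83 and KRT85 do, and knockout replicate 1 is the highest knockout library for all 6.

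In all, 4 of the 6 genes had every knockout library above every non-target library, where 16.5% of the 13092 genes tested did, and none had every knockout library below, where 15.7% did. Only 4 of the 6 passed the filter on low values (at least 1 FPKM in at least 3 libraries), since KRT83 and KRT85 each passed 1 FPKM in knockout replicate 1 alone. Of these 4, all but KRT86 passed limma as higher in knockout, where 6.26% of all genes tested did, and nothing is read from these counts because the genes were picked on this contrast. The median log2 difference of the 6, on the log2(FPKM + 1) scale that understates the change of low genes, was 2.02, beside 0.02 over all genes tested. With the same 4 genes tested, all 4 passed with a replicate block, with a pseudocount of 0.1 and without both replicate 1 libraries. Without non-target replicate 3 the count was 2, and KRT81 no longer passed. These counts are not read either.

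Replicate 1 was high for nearly all of the set. Knockout replicate 1 was the highest knockout library for 6 of 6, and non-target replicate 1 the highest non-target library for 5 of 6, the exception being KRT83. Over all genes tested, replicate 1 was the highest of its group in 51.9% for non-target, 31.2% for knockout and 24.4% for both. For KRT81, replicate 1 was 4.89 times the mean of replicates 2 and 3 in non-target and 2.80 times in knockout. For KRTAP3-1 these ratios were 3.07 and 2.55, and for KRTAP2-3 they were 2.68 and 1.32. The library with the highest hair keratins in the non-target group was thus also the one with fibroblast collagens, whose part in these levels was not tested. Non-target replicate 1 was the highest control for KRT81 and KRTAP3-1, so leaving it out could only raise their differences. They were then 4.31 and 4.35 on the log2(FPKM + 1) scale, against 3.60 and 3.99 with all libraries. These values do not bear on the part of the collagens. Compared within replicate numbers 1, 2 and 3, knockout exceeded non-target 9.39, 12.8 and 19.9 times for KRT81. The same ratios were 22.6, 28.9 and 25.9 for KRTAP3-1 and 3.56, 2.33 and 2.65 for KRT86. For KRT83 they were 14.7, 0.959 and 6.87, so KRT83 was not higher in knockout between the libraries numbered 2. Replicates 2 and 3 were not told apart across genes, so which of them are set against each other is arbitrary.

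The make-up of the type II hair keratins was uneven. KRT81 held 96.2% to 96.8% of the summed FPKM of the 6 type II hair keratins in knockout and 78.2% to 91.1% in non-target. KRT86 stood at 5.72, 16.5 and 15.3 FPKM per 100 FPKM of KRT81 in non-target and at 2.05 to 3.0 in knockout, so the ratio of the closest copies was not constant. KRT85 stood at 1.75, 3.15 and 4.27 per 100 FPKM of KRT81 in non-target. In knockout it stood at 0.572, 0.580 and 0.571, while KRT81 itself varied from 80.1 to 292 FPKM. There KRT85 rests on an estimated 90.8, 24.3 and 39.0 fragments, too few to resolve so small a spread, so no constant ratio is read from it. With KRT81, KRT83 and KRT86 added into 1 value, which the split of fragments among these 3 can still move through their different transcript lengths, the sum was 16.0 ± 14.7 FPKM in non-target and 171 ± 114 FPKM in knockout (SD, n = 3).

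**Figure D2:**
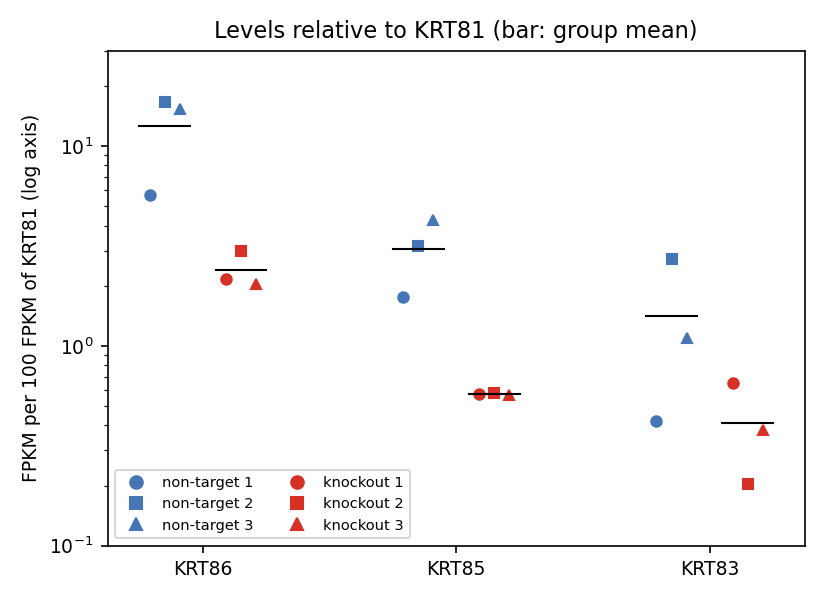
FPKM of KRT86, KRT85 and KRT83 per 100 FPKM of KRT81 (log axis) in each library, with bars at the group means. All knockout libraries lie below all non-target libraries for KRT86 and KRT85. The 3 knockout values of KRT85 lie between 0.571 and 0.580, closer than their estimated 24.3 to 90.8 fragments can resolve.

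The remaining type II hair keratins were at most low. KRT84, which is found in the dorsal tongue, stood at 0.577, 0.346 and 0.410 FPKM in non-target and 1.24, 0.109 and 0.435 FPKM in knockout, and the groups overlapped. KRT82, a hair cuticle keratin, was at most 0.033 FPKM and at 0 in 3 libraries. Neither passed the filter on low values.

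Type I hair keratins, which supply the partner chains, were present in similar or larger amounts. The summed FPKM of 11 type I hair keratins was 56.4, 13.6 and 13.6 in non-target, against 34.1, 8.0 and 8.22 for the 6 type II hair keratins. In knockout replicates 1, 2 and 3 the type I sum was 358, 334 and 380, and the type II sum 303, 83.3 and 133. The ratio of type I to type II was 1.66 to 1.70 in the non-target libraries and 1.18, 4.01 and 2.86 in knockout replicates 1, 2 and 3. The type I sum was thus nearly even over the knockout libraries while the type II sum was not.

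Of 8 type I hair keratins tested, 6 rose and 0 fell (limma, adjusted p below 0.05), where 6.26% of all genes rose and 5.93% fell, and the median log2 difference was 2.54. KRT34, KRT37, KRT38 and KRT31, found mainly in the hair cortex and medulla, had log2 differences of 4.01 ± 0.49, 4.14 ± 0.33, 3.70 ± 0.34 and 2.72 ± 0.20 (SE; limma, adjusted p of 0.000693, 8e-05, 0.000154 and 6e-05). With a replicate block all 8 rose, among them KRT36, at 1.51 FPKM in non-target replicate 3 and 1.58 FPKM in knockout replicate 3. P-values of that fit rest mostly on a spread pooled over genes, so the added calls are not read as support. KRT39, KRT71, KRT3, PRR9 and KRT14, of this and the later lists, were under 1 FPKM in every non-target library and passed the filter through knockout alone. OVOL1 and CRYM, of the later lists, were under 1 FPKM in every knockout library and passed it through non-target alone.

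**Figure D3:**
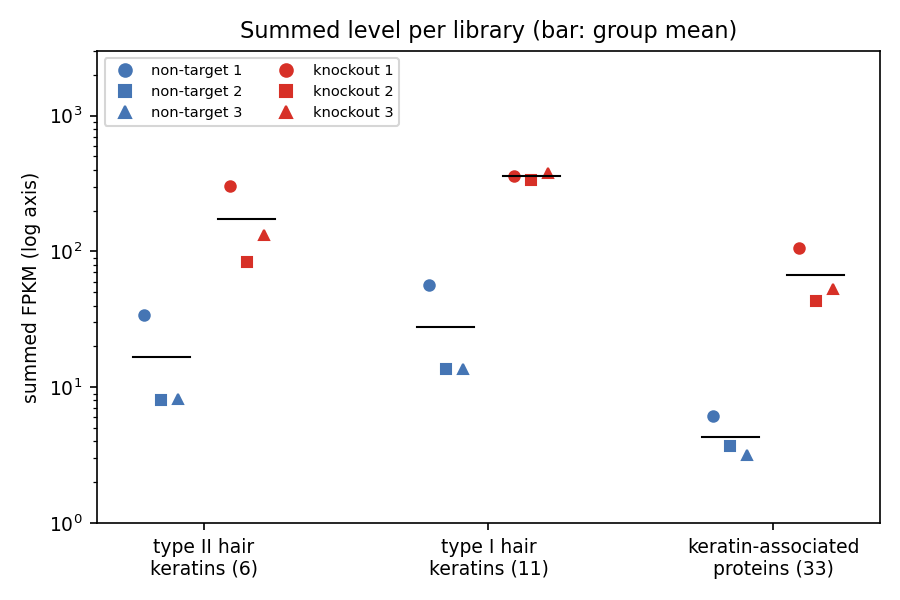
Summed FPKM (log axis) of the 6 type II hair keratins, 11 type I hair keratins and 33 keratin-associated proteins in each library, with bars at the group means. Every knockout library lies above every non-target library in each sum, and the type I sums of the knockout libraries lie between 334 and 380.

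Few other keratin-associated proteins were measurable. Of 33 listed in at least 1 library, 28 stayed under 1 FPKM in every library and 13 were listed in a single library. KRTAP3-1 and KRTAP2-3 held 88.7% to 91.4% of the summed FPKM of the family in knockout and 48.7% to 79.8% in non-target. Beside these, only KRTAP3-2, a high-sulfur protein encoded next to KRTAP3-1, passed the filter, and it did so through the knockout libraries alone. It rose from 0.190, 0.201 and 0.065 FPKM to 4.54, 2.22 and 1.99 FPKM (log2 difference 1.71 ± 0.23, SE; limma, adjusted p = 0.00109). KRTAP1-5, the next gene on the other side of KRTAP3-1 and named here after its values were seen, stood at 0.114, 0.162 and 0.191 FPKM in non-target and 1.39, 0.598 and 0.508 FPKM in knockout.

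The near-identical copies of KRTAP2-3 had almost no fragments assigned to them. KRTAP2-1 and KRTAP2-2 were listed in knockout replicate 1 alone, at 0.059 and 0.064 FPKM, and KRTAP2-4 in knockout replicate 2 alone, at 0.007 FPKM. The last value is worth less than 1 fragment at the estimated depth and is not what a whole fragment would give.

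Along the type II cluster, other keratins were also higher in knockout. Of 10 keratin genes of chromosome 12 outside the set that were tested, 6 rose and 0 fell (limma), where 6.26% of all genes rose and 5.93% fell. They were KRT75, KRT6A, KRT5, KRT71, KRT3 and KRT4, all at the KRT82 side of the hair keratins, with KRT4 from 35.7 ± 20.7 to 306 ± 29.8 FPKM and KRT5 from 12.4 ± 2.37 to 95.2 ± 17.5 FPKM (SD, n = 3). KRT5 is the basal keratin of stratified epithelia, KRT4 belongs to the mucosa of mouth and oesophagus, and KRT75 and KRT71 belong to the companion layer and inner root sheath of the hair follicle. KRT75 went from 0.703 ± 0.309 to 3.87 ± 1.48 FPKM and KRT71 from 0.268 ± 0.129 to 2.79 ± 0.328 FPKM. KRT80 and KRT7, the neighbours on the other side, did not pass in this fit, with log2 differences of 0.55 ± 0.19 and -0.28 ± 0.20 (SE; limma, adjusted p of 0.0984 and 0.431). The simple-epithelium keratins KRT8 and KRT18 at the far end did not pass either (adjusted p of 0.244 and 0.451). With a replicate block 8 of the 10 rose, KRT80 and KRT8 being added (limma, adjusted p of 0.00871 and 0.0459). KRT81 was therefore set among neighbours of very unequal level. In knockout its mean of 167 FPKM compares with 0.854 FPKM for KRT83 next to it.

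**Figure D4:**
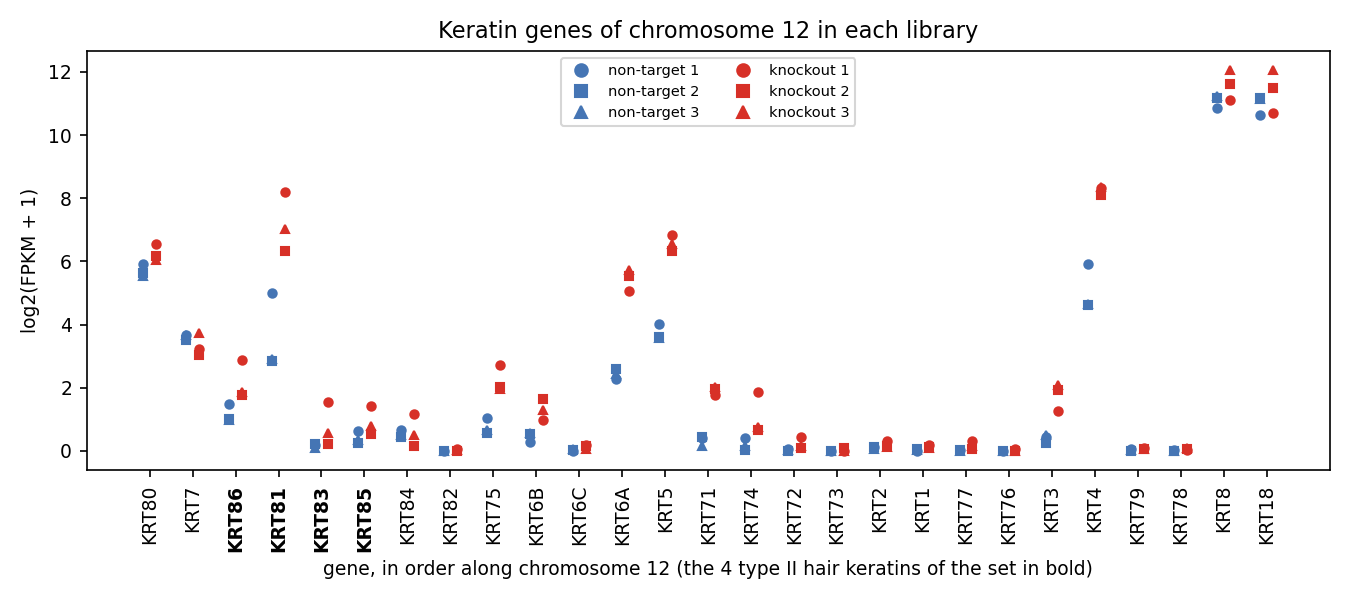
log2(FPKM + 1) in each library of the 27 keratin genes of chromosome 12, in chromosomal order, with non-target in blue and knockout in red. KRT81 stands out between low neighbours, KRT6A, KRT5 and KRT4 are also higher in all knockout libraries, and KRT7, KRT8 and KRT18 overlap between groups.

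Promoter windows from RefSeq (GRCh38.p14) were at hand for 3 of the 6 genes, KRT85, KRTAP3-1 and KRTAP2-3. The 250 bases before the start are printed, each on the minus strand, at chr12:52367482-52367731, chr17:41009129-41009378 and chr17:41060115-41060364. Capitals mark CTTTGAA, the core of the site that LEF/TCF factors bind in hair keratin promoters, and TATAAA, the letters of a TATA box. Both were searched on either strand and at any position, so a TATAAA match need not be a working TATA box.
KRT85: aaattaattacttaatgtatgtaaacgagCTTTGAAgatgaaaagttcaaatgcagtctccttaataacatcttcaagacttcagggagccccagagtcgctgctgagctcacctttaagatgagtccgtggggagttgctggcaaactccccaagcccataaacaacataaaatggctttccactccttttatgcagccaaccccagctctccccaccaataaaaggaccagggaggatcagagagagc
KRTAP3-1: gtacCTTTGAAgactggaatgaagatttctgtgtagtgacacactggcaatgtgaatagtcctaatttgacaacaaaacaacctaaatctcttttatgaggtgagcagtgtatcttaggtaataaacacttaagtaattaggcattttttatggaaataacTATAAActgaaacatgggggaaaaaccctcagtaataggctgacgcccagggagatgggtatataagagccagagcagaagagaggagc
KRTAP2-3: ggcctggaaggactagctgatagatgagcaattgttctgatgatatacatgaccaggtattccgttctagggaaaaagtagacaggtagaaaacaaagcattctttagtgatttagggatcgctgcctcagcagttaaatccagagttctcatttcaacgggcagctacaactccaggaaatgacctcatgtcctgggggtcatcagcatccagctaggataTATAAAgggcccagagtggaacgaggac
CTTTGAA occurs 221 bases before the start of KRT85 and 246 bases before that of KRTAP3-1. TATAAA occurs 89 bases before the start of KRTAP3-1 and 28 bases before that of KRTAP2-3. Only these exact letters were marked, so a variant such as tatataag, which lies nearer the start of KRTAP3-1, is not counted. Of 35116 RefSeq windows of 300 bases, 4.43% hold CTTTGAA on either strand and 11.5% hold TATAAA. Among 21 hair keratin and keratin-associated protein genes with a window, 10 hold CTTTGAA and 17 hold TATAAA. A gene counts here if any of its windows matches, whereas the shares over all are per window. KRT85 has 2 listed starts and holds CTTTGAA only at the one printed, and KRT40 holds TATAAA only at its start number 4. Besides KRT85 and KRTAP3-1, CTTTGAA is in KRTAP1-5, KRT31, KRT32, KRT33A, KRT33B, KRT35, KRT38 and KRT39, but not in KRTAP2-3, KRT34 or KRT37. The AP-1 motif TGANTCA occurs in KRTAP3-2 alone of the 21. A GATA-factor motif, AGATAA, occurs in 4, and the NF-kB motif in KRTAP3-1 alone. Of all windows, 7.71%, 10.3% and 1.91% hold the AP-1, GATA-factor and NF-kB motifs on either strand. A match is a description of the letters and not of binding.

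Of the transcription factors best known for acting on hair keratin genes, 3 were scarcely detected. HOXC13, whose loss in humans gives the same hair and nail defect as loss of KRT85, stood at 0.074 to 0.134 FPKM in non-target and 0.166 to 0.352 FPKM in knockout. FOXN1, the gene of the nude phenotype, was at most 0.109 FPKM and DLX3 at most 0.018 FPKM. LEF1, the Wnt effector that binds hair keratin promoters, was measurable and rose, from 9.84, 8.09 and 8.25 FPKM to 15.9, 17.7 and 15.3 FPKM (log2 difference 0.83 ± 0.16, SE; limma, adjusted p = 0.00801). LEF1 and these 3 factors were singled out for their known role after their values were seen. LEF1 did not pass without non-target replicate 2 or 3 (adjusted p = 0.0594 and 0.0589).

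Of 15 hair shaft regulators tested, 7 rose, 1 fell and 7 did not pass (limma), where 6.26% of all genes rose and 5.93% fell. KLF4, an epithelial differentiation factor, went from 24.3 ± 1.49 to 71.7 ± 2.47 FPKM (SD, n = 3), FOXQ1, a factor of the hair medulla, from 15.9 ± 3.67 to 41.2 ± 6.66, and MSX2, a homeobox factor of the hair matrix, from 13.1 ± 1.88 to 30.4 ± 3.08. OVOL1, a factor downstream of Wnt signalling in the hair shaft, fell from 3.85 ± 0.954 to 0.884 ± 0.066 FPKM. The median log2 difference of the 15 was 0.35. With a replicate block HR, the hairless corepressor, fell too (log2 difference -0.86; limma, adjusted p = 2.75e-05 against 0.165 without the block). The count that rose was 4 without non-target replicate 2 and 4 without non-target replicate 3.

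Structural and cross-linking genes of the hair shaft and inner root sheath moved both ways. Of 12 tested, 3 rose, 3 fell and 6 did not pass (limma, with 6.26% of all genes rising and 5.93% falling), with a median log2 difference of 0.18. PADI1, which deiminates arginine in keratins and their partners, stood at 34.1, 16.6 and 19.0 FPKM in non-target and 133, 75.4 and 77.1 FPKM in knockout (log2 difference 2.01 ± 0.30, SE; adjusted p = 0.00206). PRR9 and the protease CTSV, which is found in the hair follicle, rose by 1.45 and 1.10 on the log2 scale. LIPH, a lipase needed for hair growth, had a log2 difference of -1.28 (adjusted p = 0.0332), and DSG4, the desmosomal cadherin of the hair cortex, one of -0.96 (adjusted p = 0.0260). LIPH did not pass without non-target replicate 1, knockout replicate 2 or knockout replicate 3 (adjusted p of 0.118 to 0.137). CRYM was the other gene that fell. The count that fell was 0 without knockout replicate 3 and 1 without knockout replicate 1, knockout replicate 2 or non-target replicate 2, and 4 rose and 4 fell with a replicate block, PKP3 and S100A3 being added. The hair and inner root sheath genes TCHH (trichohyalin) and PADI3 stayed under 1 FPKM in every library, as did TGM3, at 0.302 to 0.472 FPKM in non-target and 0 to 0.034 FPKM in knockout.

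Markers of epidermal keratinocytes moved both ways. Of 5 tested, KRT5, KRT14 and KRT10 rose, DSG3 fell and COL17A1 did not pass (limma), beside 6.26% and 5.93% of all genes that rose and fell. Their summed level over the 11 listed markers was 60.6 to 65.3 FPKM in non-target and 126 to 159 FPKM in knockout. COL17A1 and DSG3 made up most of it in non-target and KRT5 in knockout. TP63, the master regulator of stratified epithelium, was at 0 in all 3 knockout libraries and at most 0.076 FPKM in non-target. DSG3, the desmosomal cadherin of basal epidermis, went from 16.9 ± 3.92 to 0.997 ± 0.419 FPKM (SD, n = 3). KRT10 did not pass without non-target replicate 1, 2 or 3 or knockout replicate 3 (adjusted p of 0.0653 to 0.0977). The part of these markers in the levels of the hair genes was not tested.

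Some genes outside the hair programme followed the 6 genes closely over the libraries. The mean log2(FPKM + 1) of the 6 was compared with each other gene tested by Pearson's r across the 6 libraries, and 892 genes had an r above 0.9. The highest were BMP6, a bone morphogenetic protein, at 0.9996, IER5, GDPD5, BDNF, DONSON and POLR3D. BMP6 stood at 4.41, 3.42 and 3.32 FPKM in non-target and 9.86, 6.64 and 7.28 FPKM in knockout, a log2 difference of 0.91, against 2.02 for the median of the 6 genes. With the group means removed, so that only the spread within groups counts, the highest were PPM1J, the matrix metalloprotease MMP14, EML2, BMP6, JMJD7 and TMBIM1, and 759 genes had an r above 0.9. MMP14 stood at 11.8, 7.96 and 7.92 FPKM in non-target and 13.5, 7.53 and 8.97 FPKM in knockout. Its log2 difference between groups was 0.09. These values are the highest among 13092 genes over 6 libraries that share their replicate structure, and they are given as a description.

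Within the set, deviations from the group means were positively correlated in all 15 pairs over the 6 libraries. KRT85 and KRT86 were the most alike, at r = 0.976. KRTAP3-1, on another chromosome, followed KRT85 at 0.959 and KRT81 at 0.957. KRT83 and KRTAP2-3 were the least alike, at 0.515. Such deviations follow replicate 1, which was the highest library of both groups in 24.4% of all genes tested. By the same measure 759 genes outside the set had an r above 0.9 with its mean. The share of positive pairs over all genes was not computed, so these values are a description.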

How the data were processed

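Poly-A RNA of 6 LoVo libraries was sequenced with strand-marking (dUTP) libraries, per the labels' protocols. The deposited values are FPKM per gene symbol. Per the submitters' processing notes, reads were aligned with TopHat2 2.1.1 to hg19 and the authors computed FPKM with STAR 2.7.10b. Strand use in counting and the handling of shared fragments are not given in the sources used here. A gene's FPKM can shift when other genes change, since each library is scaled to its own total.

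A symbol absent from a library's list counts as 0, and 89% of the symbols matched the GENCODE annotation of GRCh37. Depth was estimated from the step on which low values of 1-transcript genes gather, which rests on 52 to 73 of 298 to 375 values per library, so fragment numbers are estimates. Genes that reached 1 FPKM in 3 or more of the 6 libraries were tested with limma 3.58.1 (R 4.3.3; trended, robust) after taking log2(FPKM + 1). P-values are two-sided and adjusted by Benjamini-Hochberg over 13092 genes, with a threshold of 0.05. The script was tested on simulated data. The members, lists and rules were chosen with earlier results of these data known. Named are the members, SHARPIN, up to 4 called genes per list with the largest difference, or else the smallest p, and the 6 genes most like the members by each measure. Other genes are named where stated or to give the values of a list. The 21 genes searched for motifs are the hair keratins with a window, the KRTAP2 and KRTAP3 relatives and KRTAP1-5.

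Both groups have replicates 1, 2 and 3 in the labels, which do not say what a number shares. Across genes, deviations from the group means correlated at 0.547, 0.309 and 0.331 between libraries of the same number. The main fit left the numbers out, and a replicate block, which treats them as pairs, was another setting. Replicates 2 and 3 were not told apart (0.320 and 0.321 when crossed), so pairing them by number is arbitrary. With the block the lowest adjusted p (limma) was 5.71e-115, which the spread among 6 libraries alone cannot give. Block p-values thus rest mostly on a spread pooled over genes. Calls made only with the block, in any list, show how the setting matters and are not further support. Other settings were a pseudocount of 0.1 or 0.5, dropping the filter, requiring a mean of 5 FPKM, TPM and median-ratio scaling, a replicate block, leaving out each library, and non-target replicates 2 and 3 as 1 sample. Leaving out both replicate 1 libraries was added after seeing the data. Fits with fewer libraries used the genes of the full fit.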

Additional observations from a re-analysis of the deposited data

How the results depend on the processing

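With all libraries 1597 genes passed, 820 higher and 777 lower in knockout. This was 865 with a mean of at least 5 FPKM, 3309 with a replicate block, 944 with non-target replicates 2 and 3 as 1 sample, 911 to 1970 without any single library and 2280 without both replicate 1 libraries. With TPM scaling 670 were higher and 963 lower. The median log2 difference of the 6 genes was 2.02 and ran from 1.78 to 2.35 except with a pseudocount of 0.1 (2.68). Each of the 6 stayed higher in knockout under all 15 settings, with ranges of 3.09 to 4.31 for KRT81, 0.23 to 1.62 for KRT83, 0.26 to 1.18 for KRT85, 0.65 to 1.41 for KRT86, 3.54 to 4.59 for KRTAP3-1 and 2.78 to 4.16 for KRTAP2-3. The lowest values of KRT83 and KRT85 came without knockout replicate 1. SHARPIN (-0.12) ran from -0.41 to 0.17 without any single library, turning to 0.17 without knockout replicate 1 and 0.12 without both replicate 1 libraries. The replicate block added calls for KRT86, DONSON, CD68, KRT32, KRT36, KRT8, KRT80, HR, PKP3 and S100A3, and changed no other call among the members, listed genes and other genes recomputed singly. The log2 ratio of the summed type II hair keratins was 3.37, and 3.30 to 3.43 with other scalings or with KRT81, KRT83 and KRT86 alone. Depth limits KRT83, KRT82 and most keratin-associated proteins, which rest on a few fragments. It also limits KRT85, at an estimated 10.1 to 90.8 fragments per library.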
